A study of Mus musculus with 6 samples.

Results

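The genes described here encode dermatopontin, 6 small leucine-rich proteoglycans and 3 secreted glycoproteins of the extracellular matrix: *Dpt*, *Dcn*, *Lum*, *Bgn*, *Fmod*, *Ogn*, *Prelp*, *Fn1*, *Sparc* and *Postn*. They were taken by symbol, and each of the 10 symbols matched 1 of the 54446 genes in the tables. The family was chosen by symbol with the FPKM values and the changes between RT-MPs and Control in view, so its levels and changes in that comparison are given as a description, and the adjusted p-values are those of a fit over all tested genes. RNA was sequenced from Lewis lung carcinoma cells, an established mouse line with a wild-type genotype, kept in medium with 2% fetal bovine serum and described by the labels as stem-like. The 3 RT-MPs libraries came from cells treated with RT-MPs, which the labels leave unexplained, and the 3 Control libraries from untreated cells, with all 6 at 48 h. Nothing in the labels tells whether the replicates of a group were cultured apart, and the p-values therefore cover the spread of these libraries alone, which may be technical.

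Small leucine-rich proteoglycans are secreted proteins built around leucine-rich repeats, many of which carry glycosaminoglycan chains, and several of them bind collagen fibrils and set fibril spacing and width. Dermatopontin is a small tyrosine-rich protein that binds decorin and fibronectin and speeds collagen fibril formation. Fibronectin is the cell-adhesive scaffold of the provisional matrix, whereas SPARC and periostin are matricellular proteins that tune how cells attach to the matrix. In lung tissue these genes are mainly known as products of fibroblasts and other mesenchymal cells.

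The promoters of *Dpt*, *Ogn* and *Sparc*, the 3 members that fell in treated cells, are given from RefSeq. Each is the 300 bases from 250 before to 50 after the RefSeq start (GRCm38.p6), read 5′ to 3′ on the strand of the gene, with motif matches in capitals.

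Dpt, chr1:164796413-164796712, plus strand: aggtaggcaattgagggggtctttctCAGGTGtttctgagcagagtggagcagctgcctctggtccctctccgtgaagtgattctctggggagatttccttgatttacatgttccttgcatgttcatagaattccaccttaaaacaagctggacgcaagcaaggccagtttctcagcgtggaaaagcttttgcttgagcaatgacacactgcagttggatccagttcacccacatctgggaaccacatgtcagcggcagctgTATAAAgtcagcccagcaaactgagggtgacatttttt

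Ogn, chr13:49607765-49608064, plus strand: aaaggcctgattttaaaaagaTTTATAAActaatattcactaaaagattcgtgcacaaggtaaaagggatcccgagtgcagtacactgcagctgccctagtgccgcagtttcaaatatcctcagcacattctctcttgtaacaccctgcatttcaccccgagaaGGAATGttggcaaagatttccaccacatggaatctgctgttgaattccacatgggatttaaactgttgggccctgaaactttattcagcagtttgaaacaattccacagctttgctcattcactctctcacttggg

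Sparc, chr11:55420031-55420330, minus strand: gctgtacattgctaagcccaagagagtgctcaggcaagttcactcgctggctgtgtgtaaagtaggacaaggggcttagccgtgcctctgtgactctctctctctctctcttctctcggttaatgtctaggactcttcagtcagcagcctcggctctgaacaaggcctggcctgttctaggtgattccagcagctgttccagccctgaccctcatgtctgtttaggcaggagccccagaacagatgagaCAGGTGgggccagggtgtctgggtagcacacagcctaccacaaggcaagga

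In the *Dpt* window the capitals mark CAGGTG at base 27 and TATAAA at base 263, counted from 1 at the 5′ end. In the *Ogn* window they mark TATAAA matches on both strands, at bases 22 and 24, which overlap, and GGAATG at base 165. In the *Sparc* window they mark CAGGTG at base 250. This *Sparc* window belongs to a start that lies 3103 bases inside the outermost start of the GENCODE gene. Counted from the RefSeq start, the TATAAA matches begin at base 12 in *Dpt* and at bases −229 and −227 in *Ogn*. Whether any match works as a promoter element was not tested. The motifs searched on both strands were TATAAA, the sequence of the TATA box, GGAATG, the core of TEAD sites, and TGANTCA, bound by AP-1. CAGGTG, an E-box bound by SNAI factors, and ACGTG, the core of HIF sites, were also searched. An NF-kB motif, GGGA followed after any 2 bases by TTCC, and an interferon response motif, GAAA repeated after any 2 bases, were searched as well. Among 32851 promoter windows of this length, TATAAA was found in 13.6%, CAGGTG in 20.2% and GGAATG in 14.7%. The AP-1, HIF, NF-kB and interferon motifs, found in 7.81%, 19.6%, 1.47% and 3.44% of all windows, were not found in these 3 windows. The RefSeq table matched 7 of the 10 members.

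Values are FPKM (fragments scaled by gene length and by library size), which allow levels to be compared between genes of different length. Whole reads behind them could be recovered, with library totals of 16951005 to 21876548. RT-MPs replicate 3 stood apart. Its values correlated with the other libraries at 0.959 to 0.969, against up to 0.993 among the others. *Rn7sk*, *Lars2*, *Gm23935*, *Gm26917* and *Gm42418* held 6.74% of its reads, against 0.152% to 0.180% elsewhere. Of the labelled cell type, the keratin gene *Krt8* was at 143 to 160 FPKM in RT-MPs and 164 to 174 FPKM in Control libraries, while the epithelial genes *Epcam* and *Cldn4* and the lung lineage gene *Nkx2-1* were at 0 in all 6. Of the stem cell markers, *Cd44*, *Ly6a*, *Myc* and *Klf4* passed the filter on low values, *Nanog* was at 0 in all 6 libraries, and *Sox2*, *Pou5f1*, *Prom1* and *Aldh1a1* were at most 0.0203 FPKM in RT-MPs and 0.0469 FPKM in Control libraries.

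The 10 genes covered a wide range of levels, and their order was largely shared by both groups. *Fn1* was highest, at 285.5 ± 41.4 FPKM in RT-MPs and 259.5 ± 10.6 FPKM in Control libraries (SD, n = 3 each), and ranked 146 in RT-MPs and 144 in Control among 11915 tested genes. *Dpt* followed, at rank 618 in RT-MPs and 410 in Control. *Dcn* and *Sparc* came next. *Dcn* lay above *Sparc* in every RT-MPs library, and *Sparc* lay slightly above *Dcn* in every Control library. *Ogn* and *Lum* stood far lower. Their FPKM ranges did not overlap in Control libraries, where *Ogn* was higher, and overlapped in RT-MPs libraries. *Bgn* was at most 0.300 FPKM in RT-MPs and 0.348 FPKM in Control libraries, and *Postn*, *Fmod* and *Prelp* were at or near 0. The tested filter, a mean of at least 1 FPKM over the 6 libraries, was passed by 6 of the 10 members: 3 of the 6 small leucine-rich proteoglycans (*Dcn*, *Lum*, *Ogn*), *Dpt*, *Fn1* and *Sparc*.

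Of these 6 tested members, 3 fell in treated cells (*Dpt*, *Ogn* and *Sparc*), none rose and 3 were not called by limma at a Benjamini-Hochberg adjusted p of 0.05. Over all 11915 tested genes 3.99% were called, 2.70% lower and 1.29% higher. The members were chosen with this comparison known, so nothing is read from their count. In *Dpt*, *Ogn*, *Sparc* and *Lum* every RT-MPs value lay below every Control value, in *Dcn* every RT-MPs value lay above, and in *Fn1* the groups overlapped. Over all tested genes the groups lay apart with RT-MPs lower in 30.4% and higher in 9.61%. Without RT-MPs replicate 3 all 6 tested members were called, 4 lower and 2 higher, in a fit that called 21.4% of all genes, 15.1% lower and 6.26% higher. With median-ratio scaling 2 members were called lower and 3.08% of all genes were called, and with voom on recovered reads 4 members were called lower and 6.72% of all genes. None of the members was called with no filter on low values, where their log2 changes are the same, or after rescaling to a common sum. Of all genes, 0.105% were called with no filter and 0.386% after rescaling to a common sum. That rescaling gave log2 changes of −0.78 for *Dpt*, −1.18 for *Ogn*, −0.73 for *Sparc* and −0.73 for *Lum*, with SEs of 0.36 to 0.37 and a median of −0.38 over all tested genes. The FPKM of RT-MPs replicate 3 summed to 585752, against 296966 to 303798 in the other libraries. Division by this sum therefore lowers every gene in that library relative to the others.

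**Figure D1:**
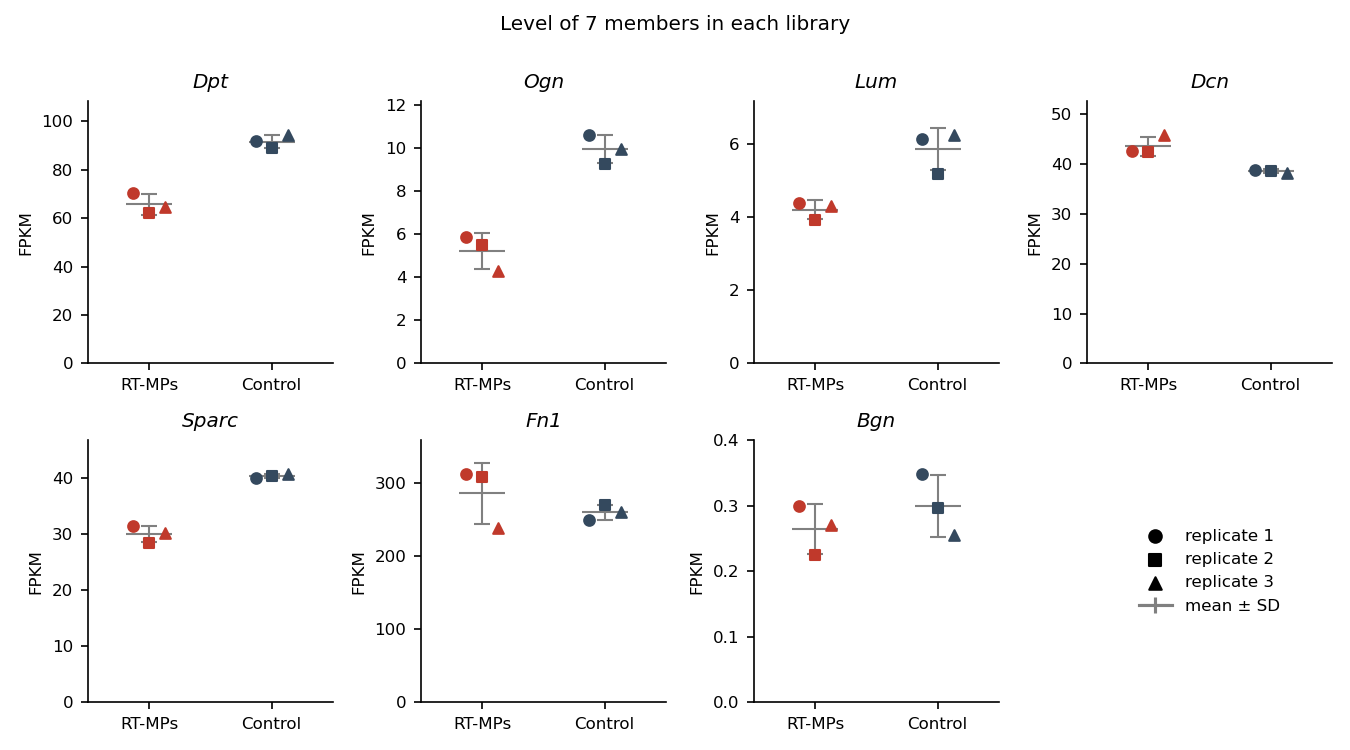
FPKM (y axis, from 0) of *Dpt*, *Ogn*, *Lum*, *Dcn*, *Sparc*, *Fn1* and *Bgn* in the 3 RT-MPs and 3 Control libraries, with a symbol for each replicate number and the mean ± SD in grey. The RT-MPs libraries lie below the Control libraries in *Dpt*, *Ogn*, *Lum* and *Sparc* and above them in *Dcn*, and in *Fn1* RT-MPs replicate 3 lies below the Control libraries while replicates 1 and 2 lie above.

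*Dpt* (chromosome 1, 164796644 to 164824266, mm10), the dermatopontin gene, had 70.5, 62.0 and 64.8 FPKM in RT-MPs replicates 1, 2 and 3, and 91.8, 88.8 and 94.3 FPKM in Control replicates 1, 2 and 3. All treated values were lower than all untreated ones, and the gap between the nearest values exceeded the range within either group. These values rest on 1893 to 2659 reads in RT-MPs and 2878 to 3277 reads in Control libraries. The mean in RT-MPs was 71.8% of that in Control, a log2 change of −0.47 (SE 0.07, limma adjusted p = 0.0293). *Dpt* was not called when RT-MPs replicate 2 or any single Control replicate was left out (adjusted p between 0.0895 and 0.192), and its log2 change then lay between −0.50 and −0.43. In these bulk samples, fewer cells that make a transcript and less of it per cell cannot be told apart.

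*Dcn* encodes decorin, a collagen-binding proteoglycan and the best known of its family. *Dcn* (chromosome 10, 97479609 to 97518143) had 42.6, 42.3 and 45.8 FPKM in RT-MPs and 38.9, 38.7 and 38.2 FPKM in Control replicates 1, 2 and 3, from 4245 to 5443 reads. All treated values were higher, by a small margin. By limma the log2 change of 0.17 (SE 0.06, adjusted p = 0.121) missed the threshold. In the fit that left out RT-MPs replicate 3 the change of 0.14 passed it (adjusted p = 0.0320), as did 6.26% of all tested genes in the higher direction. With any other single library left out *Dcn* was not called (limma adjusted p between 0.152 and 0.357). Rescaling to a common sum turned its direction (−0.13), with a median of −0.38 over all tested genes.

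*Bgn* encodes biglycan, the closest relative of decorin among the members, and is known as a ligand of Toll-like receptors when released from the matrix. *Bgn* (chromosome X, 73483602 to 73495933) had 0.300, 0.225 and 0.271 FPKM in RT-MPs and 0.348, 0.297 and 0.255 FPKM in Control libraries, and did not pass the filter. The 93 reads over the RT-MPs libraries gave 0.267 FPKM (95% exact Poisson interval 0.216 to 0.327), and the 108 reads over the Control libraries gave 0.301 FPKM (0.247 to 0.363). These intervals, which cover counting error only, overlap, as do the values of the single libraries. Overlap of intervals is not a test, and no difference in *Bgn* between the groups was tested. *Bgn* was thus far below *Dcn* in every library.

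*Lum* encodes lumican, a keratan sulfate proteoglycan that regulates collagen fibrils, among others in the cornea. *Lum* (chromosome 10, 97565128 to 97572703) had 4.39, 3.92 and 4.31 FPKM in RT-MPs and 6.15, 5.19 and 6.24 FPKM in Control libraries, from 175 to 312 reads. All treated values were lower. The log2 change was −0.40 (SE 0.09, limma adjusted p = 0.0560), just outside the threshold. Leaving out RT-MPs replicate 3 gave −0.41 with an adjusted p of 0.0243, which passed, in a fit that called 15.1% of all tested genes lower. With any other single library left out *Lum* was not called (limma adjusted p between 0.0936 and 0.245).

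*Ogn* encodes osteoglycin, also called mimecan, and had the lowest log2 change of the 6 tested members. *Ogn* (chromosome 13, 49608046 to 49624501) had 5.88, 5.49 and 4.30 FPKM in RT-MPs and 10.6, 9.27 and 9.97 FPKM in Control libraries, from 187 to 330 and from 447 to 563 reads. Each treated value was well below each untreated one, and RT-MPs replicate 3 was the lowest. The mean was 5.22 ± 0.823 FPKM in RT-MPs and 9.94 ± 0.663 FPKM in Control (SD, n = 3 each). The log2 change was −0.82 (SE 0.11, limma adjusted p = 0.0293), and −0.71 (adjusted p = 0.00500) without RT-MPs replicate 3. *Ogn* was not called without RT-MPs replicate 2 or without any single Control replicate (adjusted p between 0.0895 and 0.184). *Ogn* lies within *Cenpp* on the other strand, but their annotated exons share no base.

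*Fmod* and *Prelp*, the genes of fibromodulin and of prolargin, also bind collagen fibrils through their leucine-rich repeats. No read of *Prelp* (chromosome 1, 133910304 to 133921414) was present in any library, which allows up to 0.0379 to 0.0490 FPKM per library, the level of 3 reads. *Fmod* (chromosome 1, 134037254 to 134048277) had 0 reads in the 3 RT-MPs libraries and 0, 1 and 0 reads in Control replicates 1, 2 and 3. Neither gene was detectable above this floor in either group.

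*Sparc* encodes SPARC, or osteonectin, a calcium- and collagen-binding matricellular protein. *Sparc* (chromosome 11, 55394500 to 55423183) had 31.4, 28.5 and 30.1 FPKM in RT-MPs and 39.9, 40.3 and 40.6 FPKM in Control libraries, from 1933 to 3130 reads. The Control libraries lay close together, and all treated values were below them. The mean in RT-MPs was 74.5% of that in Control, a log2 change of −0.41 (SE 0.06, limma adjusted p = 0.0293). *Sparc* was not called without RT-MPs replicate 1 or 2 or any single Control replicate (adjusted p between 0.0581 and 0.195), nor with median-ratio scaling (−0.31, adjusted p = 0.0507).

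*Postn* encodes periostin, a matricellular protein of the fibroblast matrix that binds integrins. *Postn* (chromosome 3, 54361109 to 54391037) had no read in RT-MPs libraries and 2, 0 and 0 reads in Control libraries, so it was not detectable above the floor of 3 reads.

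*Fn1* encodes fibronectin, the member with by far the most reads. *Fn1* (chromosome 1, 71585520 to 71653200) had 311.5, 307.3 and 237.8 FPKM in RT-MPs and 248.5, 269.6 and 260.5 FPKM in Control libraries. RT-MPs replicates 1 and 2 lay above all Control libraries and RT-MPs replicate 3 lay below all of them, so the groups overlapped. Over 6 libraries the log2 change of 0.13 (SE 0.11, limma adjusted p = 0.488) missed the threshold, whereas leaving out RT-MPs replicate 3 gave 0.25 (adjusted p = 0.0136), which passed. That fit called 6.26% of all tested genes higher. With any other single library left out *Fn1* was not called (limma adjusted p between 0.552 and 0.762). Its direction turned after rescaling to a common sum (−0.18, where the median of all tested genes was −0.38) and with quantile normalization (−0.034). RT-MPs replicate 3 also had the excess of reads from 5 genes given above, whose part in its *Fn1* value was not tested. An antisense gene, *Apol7d*, shares 292 exonic bases with *Fn1* but held at most 39 reads in a library.

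**Figure D2:**
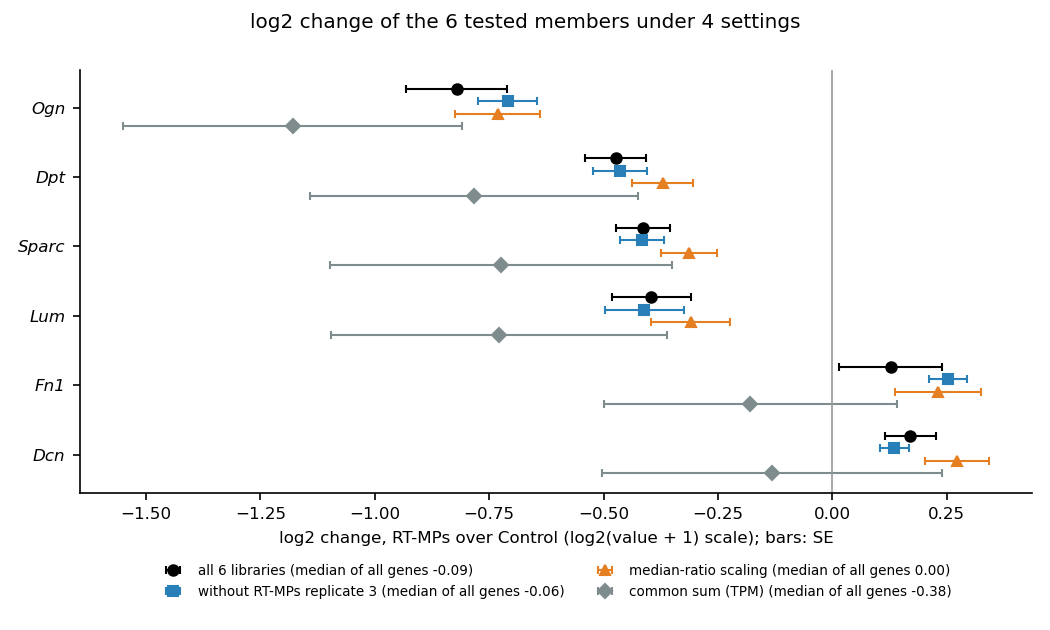
log2 change of RT-MPs over Control (x axis, bars are SE) for the 6 tested members with all 6 libraries, without RT-MPs replicate 3, with median-ratio scaling and after rescaling to a common sum (TPM). *Ogn*, *Dpt*, *Sparc* and *Lum* lie below 0 in all 4 settings, whereas *Fn1* and *Dcn* lie above 0 in the first 3 and at −0.18 and −0.13 after rescaling to a common sum, where the median of all tested genes was −0.38.

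The members were also set against *Dcn* in the same library, a ratio that does not depend on the library total. *Dpt* had 1.65, 1.47 and 1.42 times the FPKM of *Dcn* in RT-MPs and 2.36, 2.30 and 2.47 times in Control libraries. *Ogn* per *Dcn* was 0.138, 0.130 and 0.0939 in RT-MPs and 0.273, 0.240 and 0.261 in Control libraries, and its mean log2 ratio was lower by 1.11 in RT-MPs. *Sparc* per *Dcn* was 0.689 ± 0.0420 in RT-MPs and 1.04 ± 0.0191 in Control, and *Lum* per *Dcn* was 0.0966 ± 0.00556 in RT-MPs and 0.152 ± 0.0156 in Control (SD, n = 3 each). The groups lay apart in these 4 ratios. *Fn1* per *Dcn* overlapped, at 7.31, 7.26 and 5.20 in RT-MPs and 6.39, 6.97 and 6.82 in Control libraries. A ratio shows unequal change of its 2 genes and not which of them changed, and since *Dcn* was chosen as the divisor with these values known, the ratios carry no test.

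**Figure D3:**
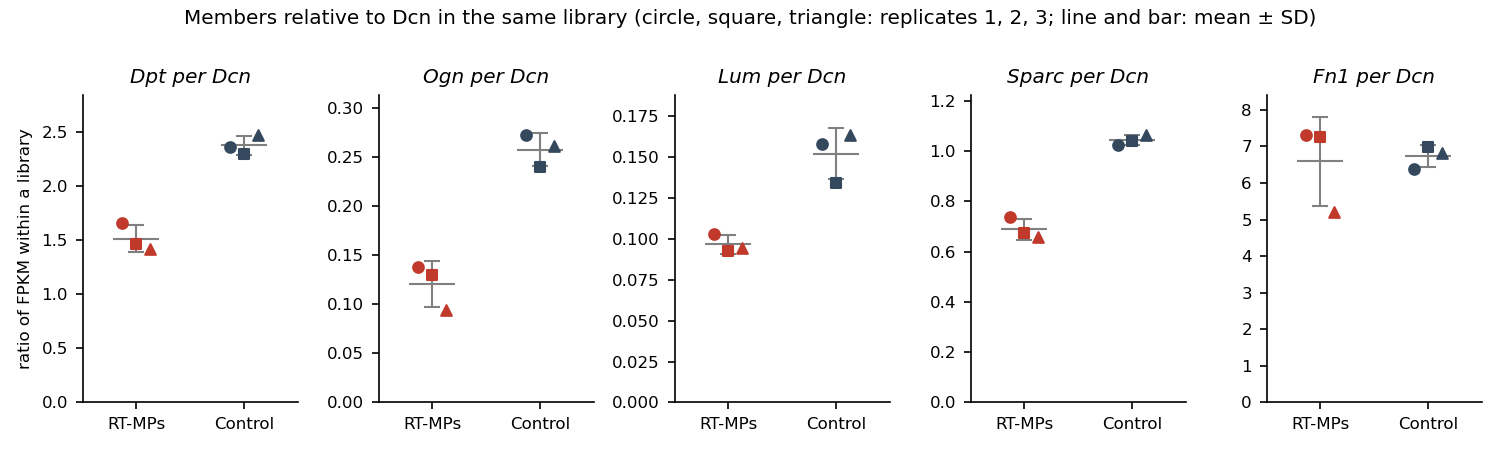
Ratio of FPKM to that of *Dcn* within each library (y axes from 0, one symbol per replicate number, mean ± SD in grey) for *Dpt*, *Ogn*, *Lum*, *Sparc* and *Fn1* in RT-MPs and Control libraries. The first 4 ratios are lower in every RT-MPs library than in every Control library, and *Fn1* per *Dcn* overlaps because RT-MPs replicate 3 is at 5.20.

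Together the 10 members summed to 466.6, 449.7 and 387.3 FPKM in RT-MPs and 436.1, 452.1 and 450.0 FPKM in Control replicates 1, 2 and 3. *Fn1* made up 61.4% to 68.3% of this sum in RT-MPs and 57.0% to 59.6% in Control libraries. Without *Fn1* the sum was 155.1, 142.4 and 149.5 FPKM in RT-MPs and 187.6, 182.5 and 189.6 FPKM in Control libraries, with no overlap between the groups. The groups also lay apart with RT-MPs lower in 30.4% of all tested genes. Since the members were chosen with these changes known, nothing is read from this sum.

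Several members lie in clusters of related genes, and the genes of a cluster differed in level. *Dcn* and *Lum* are neighbours on chromosome 10, on the same strand and 47.0 kb apart, with no other protein-coding gene of the tables between them. As deposited, *Dcn* was higher in all RT-MPs libraries and *Lum* lower, and neither was called. After rescaling to a common sum the log2 changes were −0.13 for *Dcn* and −0.73 for *Lum*, with a median of −0.38 over all tested genes. After rescaling over protein-coding genes they were 0.17 for *Dcn* and −0.40 for *Lum*. The next genes of that cluster, *Kera* and *Epyc*, had no read in any of the 6 libraries. *Ogn* ends a cluster with *Ecm2*, *Aspn* and *Omd* on chromosome 13, of which *Aspn* (asporin) had 23 reads over the RT-MPs and 43 over the Control libraries, *Ecm2* 10 in RT-MPs and 18 in Control, and *Omd* 3 in RT-MPs and 5 in Control. *Ogn* had 774 reads over the RT-MPs and 1504 over the Control libraries. *Prelp*, *Optc* and *Fmod* share a stretch of chromosome 1 and held 1 read in all.

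The protein-coding genes whose change over the 6 libraries was most like each member were sought among 10292 tested genes, by the Euclidean distance between log2(FPKM + 1) values after subtracting the mean of each gene. For *Dpt* these were *Umps*, *Retsat* and *Oasl2*, at distances of 0.0713 to 0.0855. For *Ogn* they were *Hacd4*, *Ifit2* and *Gbp7* (0.0995 to 0.142), and for *Sparc* they were *Pigp*, *Retsat* and *Dusp6* (0.0551 to 0.0684). For *Dcn* they were *Sec11c* (0.0293) and *Efemp2* (0.0342), for *Lum* they were *Zfp119a*, *Ccdc122* and *Slc3a2* (0.0492 to 0.0871), and for *Fn1* they were *Riok3*, *Sh3bgrl2* and *Klf7* (0.0350 to 0.0481). Only *Efemp2*, which encodes the elastic fibre protein fibulin-4, belongs to the matrix lists described next, and no member was among the nearest of another.

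Other genes of the matrix were taken from lists written from general knowledge. Of 12 other small leucine-rich proteoglycan genes, 2 were tested and neither was called. *Tsku*, which encodes the secreted signalling modulator tsukushi, had a log2 change of 0.02 (SE 0.07), and *Podnl1* −0.01 (SE 0.12). Of 38 other matrix glycoprotein genes 17 were tested, 1 was lower, none was higher and 16 were not called. The one that fell was the thrombospondin-1 gene *Thbs1*, at 8.01, 6.68 and 4.94 FPKM in RT-MPs and 13.3, 12.0 and 14.5 FPKM in Control libraries (log2 change −0.94, SE 0.15, limma adjusted p = 0.0375). *Spp1*, the osteopontin gene and the most abundant of the list, had 3720 ± 123 FPKM in RT-MPs and 4565 ± 102 FPKM in Control (SD, n = 3 each; log2 change −0.30, limma adjusted p = 0.0628). *Thbs2* had a log2 change of −0.24 (SE 0.12). The median of the list was −0.07, against −0.09 over all tested genes, of which 2.70% were called lower and 1.29% higher.

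None of 5 tested large or basement membrane proteoglycan genes and none of 5 tested laminin chain genes was called, with median log2 changes of 0.02 and −0.05. The perlecan gene *Hspg2* had a log2 change of 0.08 (SE 0.09) and the agrin gene *Agrn* 0.02 (SE 0.05). The laminin genes *Lamc1* and *Lamb1* had −0.02 (SE 0.11) and −0.13 (SE 0.11). Of 18 tested genes that build glycosaminoglycan chains, 1 was lower, none was higher and 17 were not called, with a median of −0.16. Over all tested genes 2.70% were called lower and 1.29% higher. *Chst15*, a chondroitin sulfotransferase gene, fell to 2.91 ± 0.0577 FPKM in RT-MPs, against 4.37 ± 0.355 FPKM in Control (SD, n = 3 each; log2 change −0.46, limma adjusted p = 0.0375). The most abundant, *B3gat3* and *Chpf*, had log2 changes of 0.16 (SE 0.09) and −0.21 (SE 0.09).

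With all 6 libraries, 2.70% of all tested genes were called lower and 1.29% higher. Of 11 tested receptor genes of the members, 1 was lower, none was higher and 10 were not called, with a median of −0.15. The syndecan gene *Sdc2* fell to 23.3, 22.8 and 20.5 FPKM in RT-MPs, against 28.4, 27.3 and 28.9 FPKM in Control libraries (log2 change −0.33, limma adjusted p = 0.0490). *Itgb1*, a subunit of the fibronectin receptor, had 254.0, 242.6 and 171.1 FPKM in RT-MPs and 254.6, 256.9 and 255.4 FPKM in Control libraries, so the lowest value was again that of RT-MPs replicate 3. The fibronectin co-receptor gene *Sdc4* had a log2 change of 0.17 (SE 0.09). Of 10 tested genes of fibrillar collagens and their processing, 2 were lower, none was higher and 8 were not called, with a median of −0.15. These were the lysyl oxidase-like genes *Loxl4* (log2 change −0.45, SE 0.06, limma adjusted p = 0.0293) and *Loxl3* (−0.39, SE 0.07, adjusted p = 0.0377). *Serpinh1*, a collagen chaperone gene, had 0.04 (SE 0.06), and *Col3a1* −0.20 (SE 0.07). The chains of type I collagen, a main partner of decorin in tissue, were near 0: *Col1a1* was at most 0.0084 FPKM in RT-MPs and 0.0237 FPKM in Control libraries, and *Col1a2* at most 0.0221 FPKM in RT-MPs and 0.0155 FPKM in Control libraries. Without RT-MPs replicate 3, the counts of called genes became 2 higher and 3 lower for the glycoproteins, 6 lower for chain synthesis, 3 higher and 2 lower for the receptors, and 1 higher and 5 lower for the collagens and their processing, with none in the other 3 lists, in the fit that called 6.26% of all genes higher and 15.1% lower. With limma, no gene of the 11915 was called without Control replicate 1 or without Control replicate 3 (1935 and 1839 genes had an unadjusted p under 0.05), so every call named here is lost there.

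**Figure D4:**
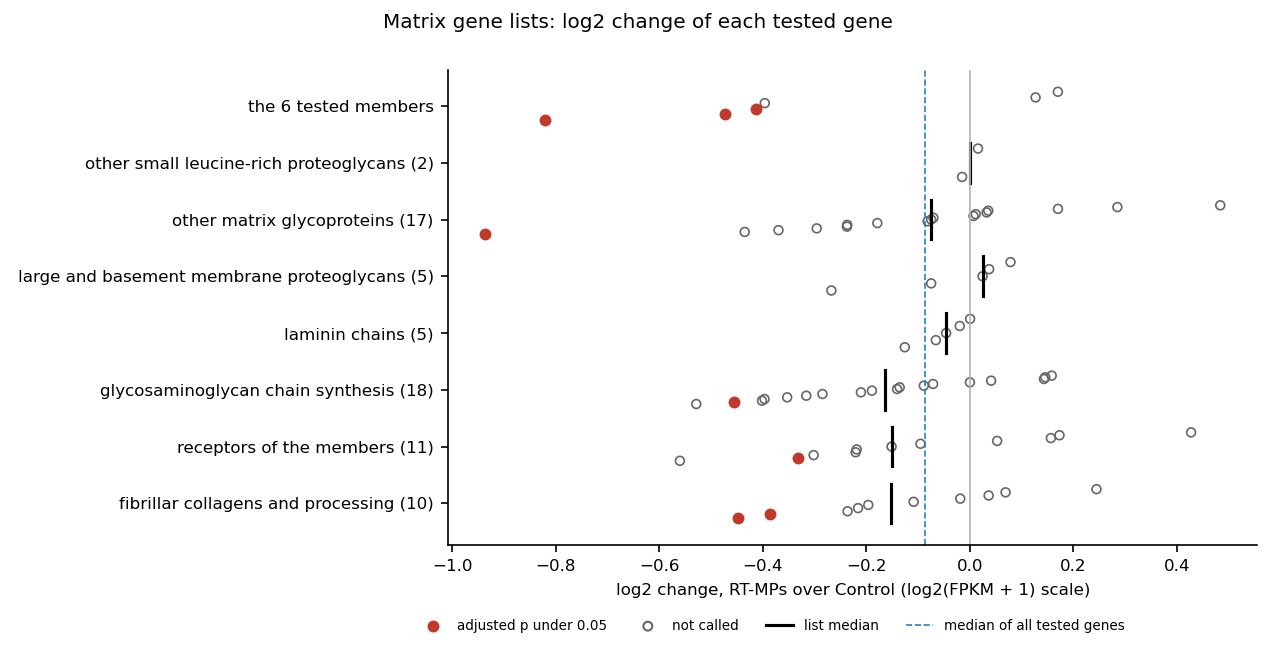
log2 change of RT-MPs over Control for each tested gene (x axis) of the members and of 7 matrix lists, with the number tested in brackets, called genes in red, list medians as black bars and the median of all tested genes as a dashed line. Called genes all lie below 0, and the list medians lie between −0.16 and 0.02. Over all tested genes 2.70% were called lower and 1.29% higher.

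Markers of cells that could add matrix transcripts were summed in each library. The 8 fibroblast markers summed to 23.2 to 25.5 FPKM in RT-MPs and 27.9 to 28.8 FPKM in Control libraries. Over all tested genes, 30.4% likewise lay lower in every RT-MPs library. Most of the difference in the sum was *Pdgfra*, with means of 12.6 FPKM in RT-MPs and 16.2 FPKM in Control. *Fap*, *Acta2*, *Pi16* and *Col15a1* were at most 0.151 FPKM in RT-MPs and 0.262 FPKM in Control libraries. The part of this sum in the results for *Dpt*, *Ogn* and *Sparc* was not tested. Of these markers 3 were tested and none was called. *Pdgfra* had a log2 change of −0.35 (SE 0.13), *Pdgfrb* −0.02 (SE 0.07) and *S100a4* −0.12 (SE 0.21), and *Thy1* was at 0 in all libraries. In the fit without RT-MPs replicate 3, *Pdgfra* was called lower (−0.21, limma adjusted p = 0.0293), as were 15.1% of all tested genes. The 8 leukocyte and macrophage markers summed to 46.6 to 50.4 FPKM in RT-MPs and 37.2 to 41.6 FPKM in Control libraries. Most of that sum was *Cd68*, 1 of 2 tested markers and called higher (log2 change 0.37, SE 0.07, limma adjusted p = 0.0446). Over all tested genes 9.61% lay higher in every RT-MPs library and 1.29% were called higher. The leukocyte gene *Ptprc* was at most 0.0060 FPKM, and *Csf1r*, *Adgre1* and *Cd3e* were at 0. The 6 endothelial markers summed to at most 0.423 FPKM in RT-MPs and 0.383 FPKM in Control libraries. The 8 epithelial markers summed to 148.9 to 167.4 FPKM in RT-MPs and 170.9 to 182.2 FPKM in Control libraries. The 6 alveolar markers summed to 1.94 to 2.42 FPKM in RT-MPs and 2.13 to 2.31 FPKM in Control libraries, and the 9 stem cell markers to 334.9 to 372.5 FPKM in RT-MPs and 328.9 to 339.7 FPKM in Control libraries. None of the tested markers of these 3 lists was called with all 6 libraries. Most of the stem cell sum was *Myc*, at 252 to 289 FPKM in RT-MPs and 234 to 245 FPKM in Control libraries. The stem cell marker *Ly6a* was called lower without RT-MPs replicate 3 (−0.63, limma adjusted p = 0.0151), in the fit that called 15.1% of all tested genes lower. The epithelial sum, mostly *Krt8*, was also lower in every RT-MPs library, and its part in the results was not tested.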

How the data were processed

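The authors deposited 1 FPKM table per library (54446 genes). The submitters' processing notes name HISAT2 and mm10. The tool that counted reads, its gene models and its strand setting: not given in the sources used here. Per the labels' protocols, Trizol was used for extraction and a stranded KAPA mRNA kit for the libraries.

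Groups came from the sample titles. GENCODE M21 (mm10) held 54409 of the identifiers. Multiplying FPKM by exon length and a library total gave whole reads, within 0.1, for 98.3% to 98.5% of low values. The totals found, 16951005 to 21876548, serve as depth; reads over genes came to 102.6% of them, so what they count is not known. Intervals and floors cover counting error only. A floor is 3 reads.

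The 2 groups were fitted with limma 3.58.1 under R 4.3.3 (lmFit, then a two-sided eBayes test using trend=TRUE) on log2(FPKM + 1), which understates changes of low genes, in 11915 genes with a mean of at least 1 FPKM, with Benjamini-Hochberg adjustment and a threshold of 0.05. Alternatives covered pseudocount, filter, scaling, variance model, weights, replicate number and each left-out library; voom on recovered reads and scaling over protein-coding genes were added after the data were seen. The members and lists were chosen with earlier results of these data known. Named genes were all 10 members, up to 4 called and the 2 most abundant genes of each list, and the 3 nearest profiles of each tested member, of which 1 is not reported here; other genes are named as markers, partners or neighbours. Protein sequences are not analysed here. Tables were read with Python 3.11.15, numpy 2.4.6 and pandas 2.3.3.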

Additional observations from a re-analysis of the deposited data

How the results depend on the processing

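The number of genes called was 476, and it was 449 and 524 with pseudocounts of 0.1 and 5, 488 at a mean of at least 5 FPKM, 367 with median-ratio scaling and 348 with quantile normalization. It was 26 with no filter, 46 after rescaling to a common sum (TPM), 4576 with arrayWeights, 800 with voom on recovered reads, 326 after rescaling over protein-coding genes, and 0 to 2548 with 1 library left out. Directions depended on scaling: 154 genes were higher and 322 lower as deposited, against 231 and 136 with median-ratio scaling, 195 and 153 with quantile normalization, and 17 and 29 after rescaling to a common sum. Of the members, 3 were called as reported, 2 with median-ratio scaling, 4 with a mean of at least 5 FPKM and 4 with voom, 6 with arrayWeights, 0 with no filter, 0 after rescaling to a common sum, and 0 to 6 with 1 library left out. *Dcn* had −0.13 after rescaling to a common sum, and *Fn1* had −0.18 there and −0.034 with quantile normalization, the 3 reversals. After rescaling over protein-coding genes 3 members were called, all lower, with *Dcn* at 0.17 and *Fn1* at 0.13. With 1 library left out, *Dpt* lay between −0.52 and −0.43, *Ogn* between −0.90 and −0.71, *Sparc* between −0.45 and −0.38, *Lum* between −0.47 and −0.36, *Dcn* between 0.14 and 0.19 and *Fn1* between 0.06 and 0.25. With the replicate number as a block, limma called 0 genes and 0 members (2620 genes at an unadjusted p under 0.05). The numbers share no stated source, so they were not taken as pairs. Deviations of same-numbered libraries correlated at 0.10, −0.08 and −0.03 for numbers 1, 2 and 3, and those of unlike-numbered libraries at −0.11 to 0.12. Such correlations cannot decide whether libraries are paired, since the 3 deviations of a gene within a group are not independent. The cause of the differences between settings was not tested. The filter on low values leaves *Bgn*, *Fmod*, *Prelp* and *Postn* untested, and *Fmod*, *Prelp* and *Postn* held at most 2 reads in a library.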
